A study of Mus musculus with 3 samples.

Results

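Cxcl12, Cxcr4, Ackr3, Kitl and Kit form 2 ligand and receptor pairs, plus a scavenging receptor, that hold blood-forming cells in bone marrow. They were chosen by gene symbol as 5 of the 31053 genes counted in single cells of mouse calvaria, the flat bone of the skull roof. All 5 symbols were found in each of the 3 libraries. The mice were C57BL/6 animals aged 8 weeks. The control library came from calvaria with no tumour. For the scratch-negative library, HNM007 cells, a mouse squamous carcinoma line, were placed on bone that had not been scratched, a state the submitters call pre-invasive. For the scratch-positive library the same line was placed on bone whose surface had been scratched with a 21 G needle, which takes away the periosteum, and this state is called invasive. Tissue was collected 1 week after implantation with the tumour excised, and live CD45+ and CD45- cells were combined at 1:1.

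Each group was 1 library, so every difference below is between 2 libraries, no spread between mice is known, and no test between groups can be made. Scratched bone that carried no tumour was not analysed here. Scratching, loss of periosteum and invasion cannot be told apart in the scratch-positive library. The 1:1 mixing of CD45+ and CD45- cells also means that the number of cells of a class does not measure its abundance in the tissue.

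CXCL12 is a chemokine made by reticular stromal cells of marrow. It signals through CXCR4 on stem cells, progenitors, B-lineage cells and neutrophils, and loss of this signal lets neutrophils leave for the blood. ACKR3 binds CXCL12 without coupling to G proteins and takes it up from the surroundings. KITL, also called stem cell factor, is made largely by the same reticular cells and by endothelium. It acts on the receptor tyrosine kinase KIT, which stem cells, early progenitors, erythroid precursors and mast cells carry.

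All 5 are protein-coding genes in GENCODE, and their identifiers there matched those of the count tables. Positions are on GRCm38, which is the same assembly as the mm10 of the submitters' processing notes. Cxcl12 (ENSMUSG00000061353) lies at chr6:117168535-117181367 on the plus strand and Kitl (ENSMUSG00000019966) at chr10:100015630-100100416 on the plus strand. Cxcr4 (ENSMUSG00000045382) lies at chr1:128588199-128592293 on the minus strand, Ackr3 (ENSMUSG00000044337) at chr1:90203980-90216751 on the plus strand, and Kit (ENSMUSG00000005672) at chr5:75574916-75656722 on the plus strand. Cxcl12 has 3 protein-coding transcripts there and Kitl has 4. Reads from the 3' end of transcripts do not separate these, so the CXCL12 isoforms, and the membrane-bound and soluble forms of KITL, were counted as 1 gene each.

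The promoters of the ligands are shown because the same cells turned out to hold both transcripts. The sequences are from RefSeq (GRCm38.p6), which matched 5 of the 5 genes, and run 5' to 3' from 250 bases before RefSeq's start of the gene to 50 after it. For Kitl that start differs from the GENCODE start given above. The Cxcl12 window is chr6:117168285-117168584 and the Kitl window chr10:100015571-100015870, both on the plus strand. Capitals mark GGGCGG on either strand, where it reads CCGCCC on the other, and TATAAA.
Cxcl12: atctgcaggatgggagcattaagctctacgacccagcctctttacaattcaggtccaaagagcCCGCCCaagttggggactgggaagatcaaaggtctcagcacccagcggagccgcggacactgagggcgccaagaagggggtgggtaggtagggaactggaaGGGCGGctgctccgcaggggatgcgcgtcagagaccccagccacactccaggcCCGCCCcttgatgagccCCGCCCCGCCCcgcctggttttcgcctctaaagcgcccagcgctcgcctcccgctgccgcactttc
Kitl: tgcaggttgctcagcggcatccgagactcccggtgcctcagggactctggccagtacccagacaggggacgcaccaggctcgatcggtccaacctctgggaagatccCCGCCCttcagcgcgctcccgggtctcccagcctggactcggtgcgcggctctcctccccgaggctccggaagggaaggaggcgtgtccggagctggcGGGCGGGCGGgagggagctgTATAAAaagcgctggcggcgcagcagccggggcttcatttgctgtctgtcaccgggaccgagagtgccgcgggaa
Both windows are rich in G and C, at 64.7% in Cxcl12 and 68.7% in Kitl against a median of 52.7% over 32851 mouse promoter windows. GGGCGG, the letters of a GC box, occurs 5 times in the Cxcl12 window and 3 times in the Kitl window, overlapping matches included, and 35.7% of all windows hold it at least once. TATAAA is in the Kitl window once and is not in the Cxcl12 window, and 13.6% of all windows hold it. A match describes the letters only and is no evidence that a factor binds there.

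Counts were unique molecular identifiers (UMIs), 1 per captured transcript molecule. The libraries held 7490, 8517 and 9504 barcodes in the order control, scratch-negative, scratch-positive, with 100089008, 167623741 and 395654008 UMIs, and this order is kept for all sets of 3 values below. After filtering, 22194 of 25511 barcodes remained, with medians of 8862, 11261.5 and 36427 UMIs per cell. Libraries shared 16 to 30 barcodes in pairs. Cells were grouped into 41 clusters with the 5 genes kept out of the clustering. Clusters were named from marker lists, so a class name means cells that look like that type by those markers, and 4 clusters with 790 cells stayed unnamed. No cluster could be named as endothelium, stem and multipotent progenitors, mast cells or basophils, which are known sites of Cxcl12, Kitl or Kit. The endothelial gene Cdh5 had UMIs in 5, 19 and 13 cells. Levels are UMIs of a gene per 1000000 UMIs of all genes in the class, or CPM, with exact Poisson 95% intervals. Ratios of levels carry exact conditional binomial 95% intervals. Both cover counting error only.

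Classes were ranked where at least 2 libraries held 20 cells or more, which left out osteoblasts, chondrocytes and meningeal cells. Among the 13 ranked classes Cxcl12 and Kitl were highest in reticular cells of the marrow. Cxcr4 was highest in NK cells, Ackr3 in fibroblasts, and Kit in dendritic and erythroid cells. Neutrophils and B-lineage cells were each ranked as 1 class. Within neutrophils, cluster 0 had more Cxcr4 than NK cells, at 561.8, 488.3 and 372.1 CPM. Between the highest and the next class the level of Cxcl12 differed by far more than the libraries did. Reticular cells spanned 19430 to 19500 CPM over the 2 libraries with 20 cells or more, fibroblasts 89.95 to 287.8 CPM and carcinoma cells 5.49 to 6.31 CPM. Below these, the 10 remaining classes overlapped their neighbours in the order of levels. For Kitl the order was reticular cells at 870.3 to 1105 CPM, carcinoma cells at 50.7 to 58.5 CPM and fibroblasts at 4.95 to 22.5 CPM, without overlap, and the others again overlapped. The unranked meningeal cells (6, 20 and 8 cells) had Cxcl12 at 375.1, 271.4 and 299.2 CPM, near or above fibroblasts. Their Kitl was at 12.9, 53.7 and 71.2 CPM from 1, 17 and 5 UMIs, near carcinoma cells in the last 2 libraries. Levels are compared here for 1 gene at a time, since UMIs were not set against transcript length.

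**Figure D1:**
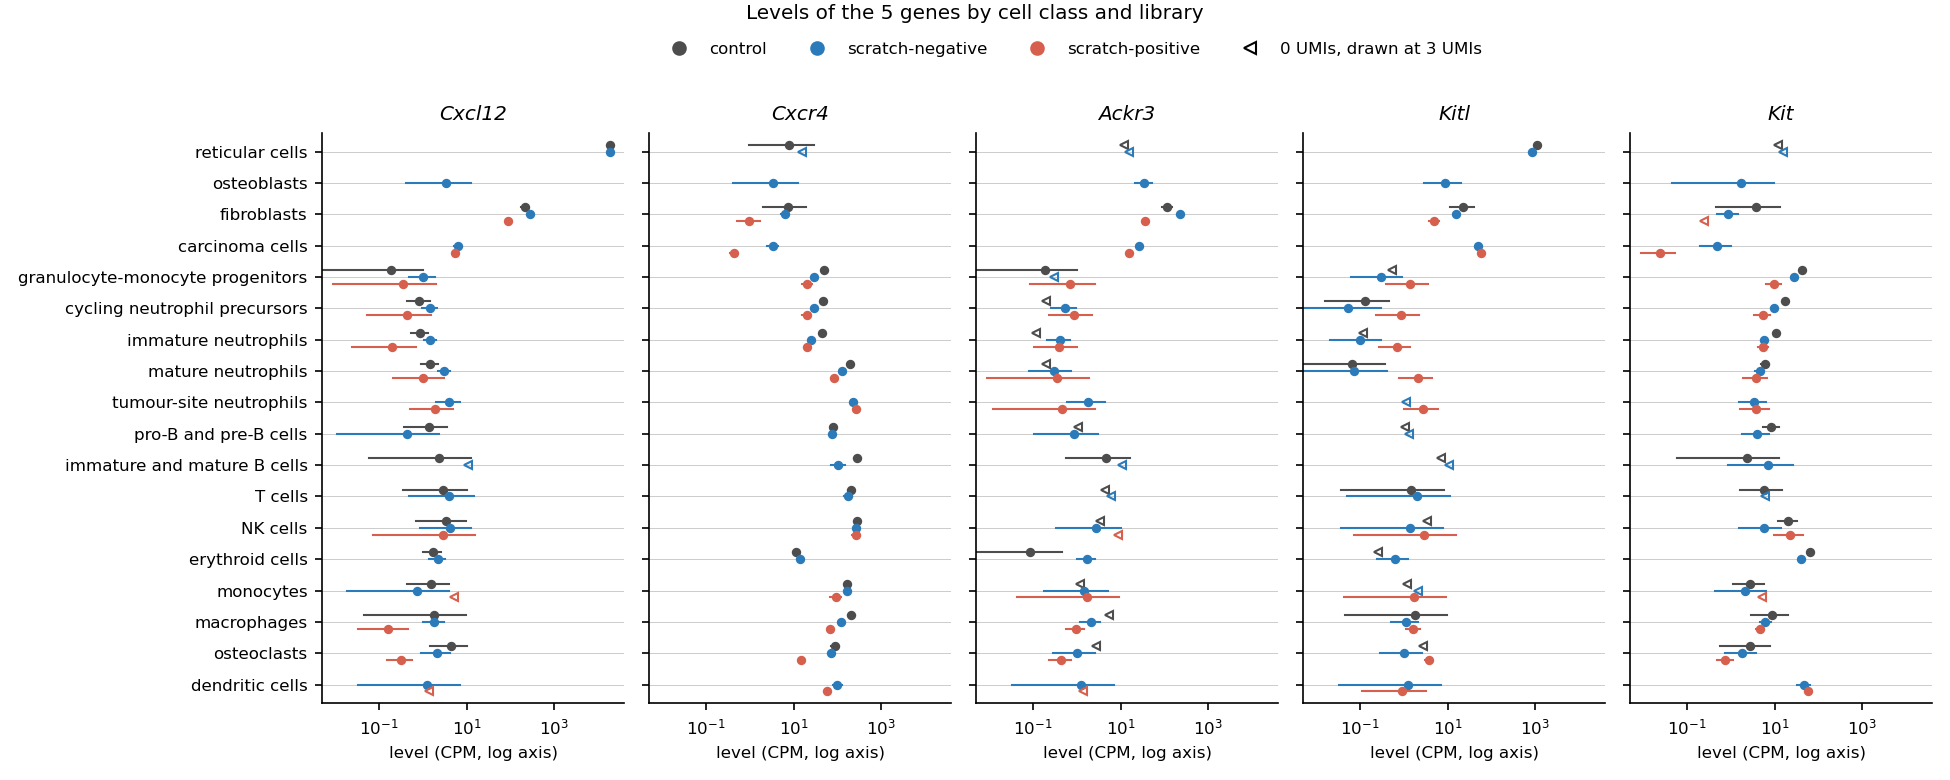
Level of each gene (CPM, log axis) in each cell class, with 1 point per library that held 20 cells or more, and exact Poisson 95% intervals. Open triangles mark a library with 0 UMIs, drawn at the level of 3 UMIs. Cxcl12 and Kitl peak in marrow stroma, Ackr3 in fibroblasts and Cxcr4 in lymphoid and myeloid classes.

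Cxcl12 in marrow stroma was at 6842 CPM in control (95% interval 6658 to 7030; 61 cells), 3801 CPM in scratch-negative (3690 to 3914; 61 cells) and 2714 CPM in scratch-positive (2519 to 2919; 15 cells). The 3 intervals did not overlap, and control was highest. The ratio of scratch-negative to control was 0.556 (0.534 to 0.578), a 1.80-fold lower level. With 15 cells the scratch-positive library was under the minimum of 50 and was not compared. Kitl in the same cells was at 392.9, 186.4 and 226.1 CPM, with a ratio of scratch-negative to control of 0.474 (0.397 to 0.567). A gene was called where its levels differed at least 1.5-fold with the whole interval on 1 side of 1, among genes with 10 UMIs or more in the 2 libraries. In marrow stroma 4 of the 5 genes could be compared. Cxcl12, Kitl and Ackr3 were called lower and Cxcr4 higher, where 18.6% of all 9549 genes compared were called in either direction. The Ackr3 call rested on 31 UMIs in 3 control cells and 20 UMIs in 2 scratch-negative cells, all osteoblasts. Those are too few cells to compare libraries. Of the 17 Cxcr4 UMIs in scratch-negative, 15 lay in stroma cells that also held neutrophil transcripts, against 1 of 3 in control, and without those cells the ratio was 0.827. As a mean over cells the ratio was 0.8085 for Cxcl12 and 0.671 for Kitl, both short of 1.5-fold. Fewer cells of a kind and less RNA per cell cannot be told apart in such summed values.

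The marrow stroma was 1 cluster, led by the osteoblast gene Bglap and with Adipoq and Cxcl12 itself among its 10 leading genes. Sub-clustering separated reticular cells (29, 22 and 5 cells), osteoblasts (12, 24 and 7 cells), stroma with neutrophil transcripts (5, 9 and 1 cells) and a remainder (15, 6 and 2 cells). The reticular cells had all 12 markers of their list, with Adipoq at 3112 CPM and Lepr, the leptin receptor that marks these cells, at 873.4 CPM. Osteoblasts, which build bone matrix, had Bglap, the gene of osteocalcin, at 74320 CPM. In reticular cells Cxcl12 was at 19500, 19430 and 18820 CPM. The ratio of scratch-negative to control was 0.996 (0.954 to 1.04), with 1 inside the interval, and the levels of the 3 libraries had overlapping intervals. In osteoblasts Cxcl12 was at 0, 3.47 and 4.66 CPM, with 0, 2 and 1 UMIs. Reticular cells were 29 of the 61 stroma cells in control and 22 of 61 in scratch-negative, while osteoblasts were 12 and 24. Class levels weigh cells by their UMIs. Of the UMIs of all genes in the stroma, reticular cells held 250582 of 763529 in control and 193030 of 1180244 in scratch-negative.

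Single reticular cells varied more than the libraries did. In control the lowest, median and highest cell had 8717, 18930 and 40800 CPM of Cxcl12. The same values were 8190, 19090 and 31360 CPM in scratch-negative, and 12310, 19780 and 27970 CPM in the 5 cells of scratch-positive. The ranges of the 3 libraries overlapped. Every reticular cell had UMIs of both Cxcl12 and Kitl, 29 of 29, 22 of 22 and 5 of 5. After each cell was thinned to 2000 UMIs, Kitl was still found in 93.1% of reticular cells in control (77.2 to 99.2, exact Clopper-Pearson interval), 77.3% in scratch-negative (54.6 to 92.2) and 80.0% in scratch-positive (28.4 to 99.5).

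Kitl in reticular cells was at 1105, 870.3 and 1636 CPM. The ratio of scratch-negative to control was 0.787 (0.646 to 0.957), whose interval lay below 1 but which did not reach 1.5-fold. Neither ligand was therefore called in reticular cells, where 7.85% of 5745 genes were. Median cells had 1063, 858.4 and 1250 CPM of Kitl. In osteoblasts Kitl was at 4.13, 8.68 and 9.32 CPM from 1, 5 and 2 UMIs. The 23 remaining stroma cells lay between, with Cxcl12 at 1381, 7074 and 956.5 CPM and Kitl at 65.5, 413.7 and 136.6 CPM. The sub-cluster with neutrophil transcripts had the neutrophil gene S100a8 at 62490 CPM. It was 5 of 61 stroma cells in control and 9 of 61 in scratch-negative, where the class levels of Cxcl12 and Kitl were lower.

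**Figure D2:**
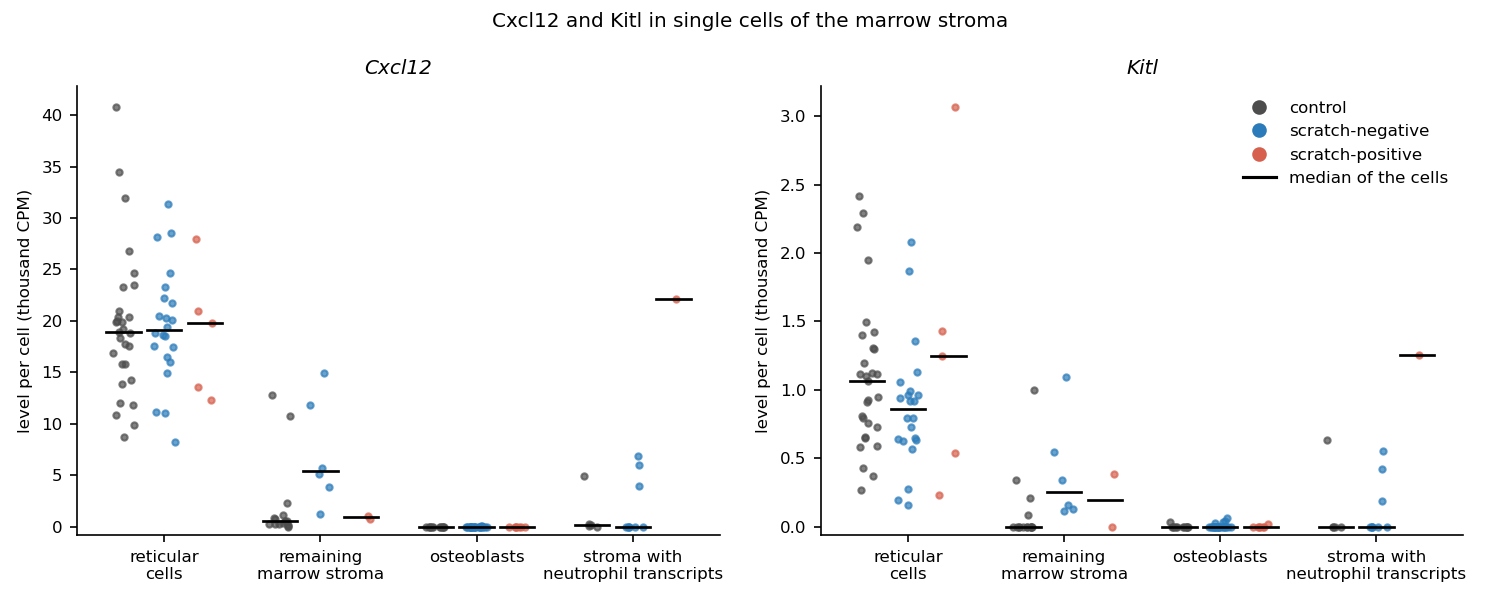
Level per cell (in units of 1000 CPM) of Cxcl12 and Kitl in the 4 parts of the marrow stroma, with 1 point per cell coloured by library and a line at the median of the cells. The ranges of Cxcl12 in reticular cells of the 3 libraries overlap, with only 5 cells in scratch-positive, while osteoblasts lie at or near 0.

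Other genes linked to the niche role of marrow stroma were read in the same way. Beside supplied factors, their list holds the receptor gene Lepr and the transcription factor genes Ebf1, Ebf3 and Foxc1. Fewer reticular cells and less RNA per cell cannot be told apart in the values of the whole class. Of the 15 listed, 14 could be compared in the whole stroma class, where 12 were lower in scratch-negative than in control and 1 was higher, beside 18.6% of all genes called in either direction. Their median log2 ratio was -1.06, against -0.25 for all genes of the class. Csf1, a growth factor of monocytes and osteoclasts, was at 238.4 and 82.2 CPM in control and scratch-negative. Il7, which B-cell precursors need, was at 70.7 and 21.2 CPM. Vcam1, an adhesion molecule that anchors blood cells, was at 798.9 and 367.7 CPM, and Lepr was at 356.2 and 161.8 CPM. The 1 gene that was higher was Ptn, which encodes pleiotrophin, at 3.93 and 37.3 CPM.

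In the reticular cells alone 13 of these listed genes could be compared and 2 were called, where 7.85% of 5745 genes were. Il7 was at 183.6 CPM in control and 103.6 CPM in scratch-negative, a ratio of 0.564 (0.316 to 0.973). Bmp4, a bone morphogenetic protein, was at 359.2 and 88.1 CPM, a ratio of 0.245 (0.137 to 0.415). The median log2 ratio of the list there was -0.31, against 0.01 for all genes. Vcam1 had a ratio of 0.793 (0.693 to 0.908), like Kitl below 1 and short of 1.5-fold. Csf1 had a ratio of 0.805 (0.577 to 1.12), an interval that holds 1. Il7, Lepr, Adipoq, Ebf3 and Foxc1 were also among the 12 markers that named these cells in all libraries together.

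The cells that supplied most Cxcl12 and Kitl transcripts in a library changed with the cells it held. In control 94.9% of all Cxcl12 UMIs were in marrow stroma, which was 0.987% of the cells, and 88.8% were in the reticular cells. In scratch-negative marrow stroma had 45.3% and fibroblasts 49.9%. In scratch-positive carcinoma cells had 42.2%, fibroblasts 34.0% and marrow stroma 22.1%. For Kitl the shift was larger. Marrow stroma had 92.3% of the Kitl UMIs in control and 16.9% in scratch-negative, while carcinoma cells had 56.8% in scratch-negative and 97.7% in scratch-positive. These shares follow the number of cells loaded from each class and are no measure of the tissue.

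**Figure D3:**
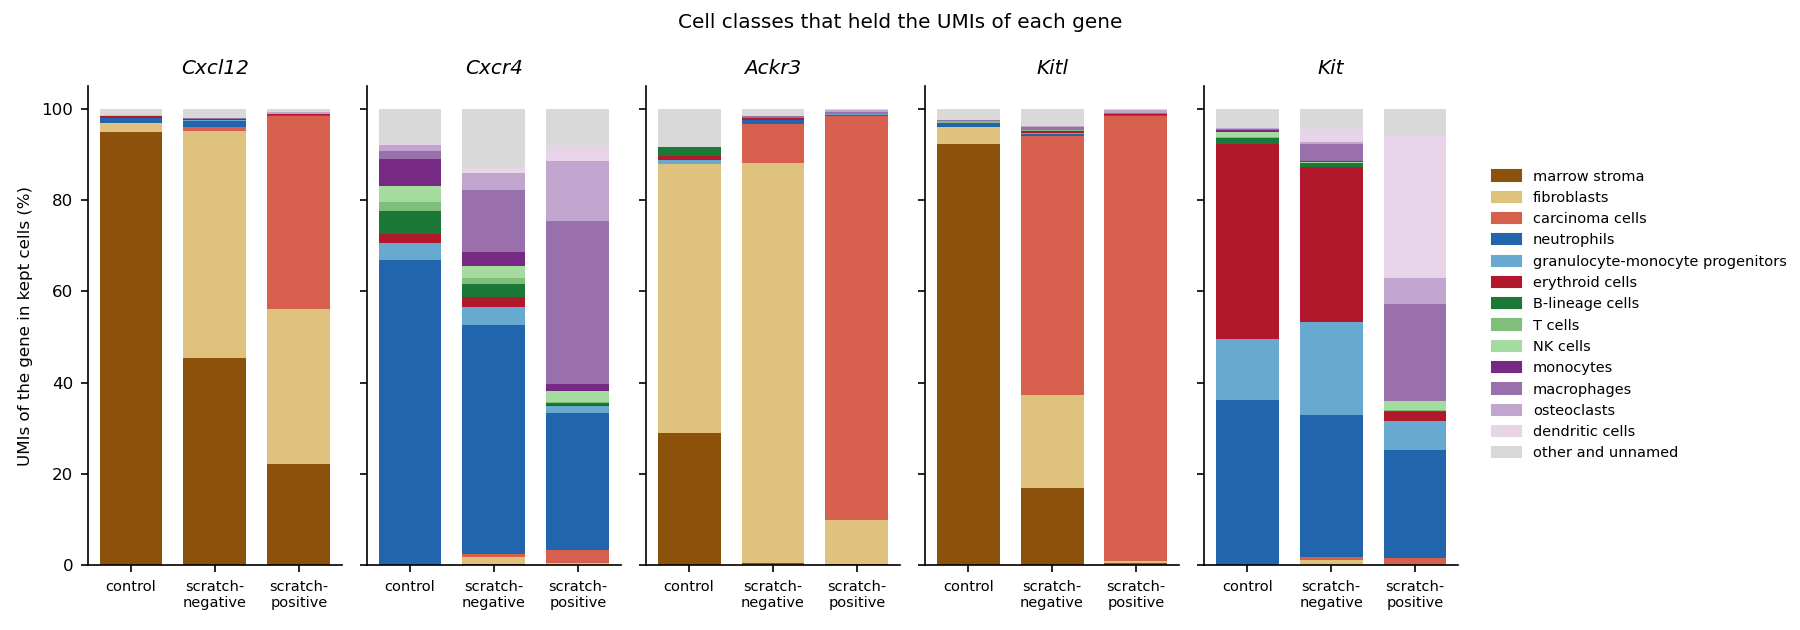
Share of each gene's UMIs in kept cells (percent of the library) by the cell class that held them, 1 bar per library. The bars of Kitl and Ackr3 go from stroma and fibroblasts in control to carcinoma cells in scratch-positive, where carcinoma cells hold 97.7% and 88.5%.

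Kitl in carcinoma cells was at 50.7 CPM in scratch-negative (208 cells) and 58.5 CPM in scratch-positive (3825 cells), a ratio of 1.15 (1.07 to 1.24) that was not called. UMIs of Kitl were in 82.2% and 85.4% of these cells. After thinning to 2000 UMIs the shares were 7.96% (4.62 to 12.6) and 10.8% (9.83 to 11.9), against 0% of neutrophils in scratch-negative, which allows a share of up to 0.0614%, and 0.261% of neutrophils in scratch-positive (0.0848 to 0.608). Neutrophils stand here for cells not known to make KITL, and their medians were 9765 and 7345 UMIs per cell, against 70815 and 62905 in carcinoma cells. The carcinoma cells of the 2 libraries came from different clusters. Cluster 35, led by Gbp4, held 158 of the 208 scratch-negative cells and 282 of the 3825 scratch-positive cells. Its part in the ratios between the libraries was not tested. In the scratch-positive library the 6 carcinoma clusters ranged in Kitl from 37.8 CPM in cluster 34, led by genes of cell division, to 71.9 CPM in cluster 38. Cxcl12 in carcinoma cells was at 6.31 and 5.49 CPM, a ratio of 0.871 (0.705 to 1.09). Within scratch-positive, cluster 34 and cluster 39 were at 13.1 and 11.3 CPM and cluster 38 at 3.51 CPM, a wider range than that between the libraries.

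Fibroblasts were second for Cxcl12 among the ranked classes, at 211.9, 287.8 and 89.95 CPM in 48, 549 and 419 cells. Scratch-positive was lowest, with a ratio to scratch-negative of 0.313 (0.293 to 0.334), or 3.20-fold lower. Kitl was at 22.5, 15.5 and 4.95 CPM, with a ratio of 0.319 (0.238 to 0.423). All 5 genes were called lower in fibroblasts of scratch-positive than of scratch-negative, where 27.6% of 14005 genes were called in either direction. The call of Kitl was lost without doublet removal, at a ratio of 0.981. Cxcr4 and Kit, genes of blood cells, rested on 107 and 12 UMIs and on 15 and 0 UMIs. In the same cells the neutrophil gene S100a8 was at 12570 and 1431 CPM and the immune gene Ptprc at 27.6 and 5.52 CPM, and their part in these values was not tested. The fibroblasts of the libraries came from different clusters. Cluster 15, led by Clec3b, held all 48 control cells, 198 of scratch-negative and 114 of scratch-positive. Cluster 36, led by Rarres2, held 345 scratch-negative and 44 scratch-positive cells, and cluster 40, led by the granzyme gene Gzmd and with the contractile genes Actg2 and Tagln, held 6 and 261. Within cluster 15 Cxcl12 was at 355.8 CPM in scratch-negative and 74.6 CPM in scratch-positive, a ratio of 0.210 (0.177 to 0.247). Within cluster 36 the order was the opposite, at 275.9 (267.1 to 284.9) and 361.8 CPM (331.0 to 394.6). Cluster 40 was at 49.9 CPM in scratch-positive.

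Ackr3, the scavenging receptor, was mainly a transcript of fibroblasts and carcinoma cells, not of blood cells. In fibroblasts it was at 118.1, 226.3 and 35.9 CPM, with scratch-negative highest and scratch-positive lowest. The ratio of scratch-positive to scratch-negative was 0.158 (0.143 to 0.175), or 6.31-fold lower. Most of the scratch-negative level came from cluster 36, at 257.9 CPM, against 142.9 CPM for the same cluster and 10.7 CPM for cluster 40 in scratch-positive. Cluster 15 was at 118.1, 114.5 and 66.1 CPM, and its ratio of scratch-positive to scratch-negative was 0.577 (0.474 to 0.700), still lower but far nearer 1. Thinned to 2000 UMIs, 14.6%, 29.4% and 7.42% of fibroblasts had a UMI of Ackr3, against 0%, 0.0409% and 0.157% of neutrophils (0 of the control cells allows a share of up to 0.0666%), with medians of 10840, 29705 and 28607 UMIs per fibroblast.

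Carcinoma cells had Ackr3 at 26.5 CPM in scratch-negative and 16.0 CPM in scratch-positive, a ratio of 0.602 (0.542 to 0.670), which was 0.730 with each library clustered alone. Cluster 35 held 158 of the 208 scratch-negative carcinoma cells and 282 of the 3825 in scratch-positive, and its part in this ratio was not tested. Carcinoma cells held 88.5% of all Ackr3 UMIs in scratch-positive. In that class 3 of the 5 genes were called lower in scratch-positive, Ackr3, Cxcr4 and Kit, where 16.2% of 14981 genes were called. Cxcr4 there was at 3.36 and 0.431 CPM and Kit at 0.480 and 0.0239 CPM, from 49 and 108 UMIs of Cxcr4 and 7 and 6 of Kit. The immune gene Ptprc was at 18.2 and 1.78 CPM and the neutrophil gene S100a8 at 10880 and 391.8 CPM in the same cells, and their part in these values was not tested.

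Reticular cells, which had the most Cxcl12, had 0, 0 and 1 UMIs of Ackr3. For the 29 control cells 3 UMIs would be 11.97 CPM, a limit under the fibroblast level. Among stroma, Ackr3 was found in osteoblasts at 127.9, 34.7 and 37.3 CPM. These levels rested on 31, 20 and 8 UMIs in 3 of 12, 2 of 24 and 3 of 7 cells, which is too few cells to compare libraries. In neutrophils it was at 0, 0.475 and 0.501 CPM, and NK, T and B-lineage cells had 0 to 2 UMIs in each library.

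Cxcr4 had its most even level in NK cells, at 279.8, 271.2 and 269.2 CPM in 165, 135 and 92 cells. The ratio of scratch-negative to control was 0.969 (0.799 to 1.17), that of scratch-positive to control 0.962 (0.750 to 1.23), and that of scratch-positive to scratch-negative 0.992 (0.767 to 1.28). Thinned to 2000 UMIs, 40.4%, 38.4% and 40% of NK cells had a UMI of Cxcr4. Carcinoma cells, which stand here for cells without it, had one in 0.498% and 0.108%, and fibroblasts of control in 2.08%. In NK cells 2 of the 5 genes could be compared. None was called between scratch-positive and control, where 12.1% of 7427 genes were. Kit was called lower in scratch-negative than in control (7.63% of 7977 genes called) and higher in scratch-positive than in scratch-negative (7.53% of 6983 genes called), on 18, 4 and 8 UMIs.

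T cells were next among the classes ranked whole. Their Cxcr4 was at 207.5 CPM in control (174.9 to 244.4) and 173.7 CPM in scratch-negative, a ratio of 0.837 (0.634 to 1.10). It was the 1 gene of the 5 with enough UMIs there and was not called, where 9.6% of 7186 genes were. The 17 T cells of scratch-positive were at 68.9 CPM from 8 UMIs. B-lineage cells depend on CXCL12 from early in their development. They had Cxcr4 at 108.6, 78.6 and 36.8 CPM, with a ratio of scratch-negative to control of 0.724 (0.607 to 0.862). Neither Cxcr4 nor Kit was called there, where 7.01% of 10406 genes were.

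The 2 groups of B-lineage cells differed. Pro-B and pre-B cells were at 81.8 CPM in control and 75.5 CPM in scratch-negative, a ratio of 0.923 (0.755 to 1.13). Immature and mature B cells were at 288.0 CPM in 90 control cells (239.5 to 343.4), 105.0 CPM in 43 scratch-negative cells (70.3 to 150.8) and 12 CPM in 17 scratch-positive cells from 2 UMIs. The 2 last numbers of cells were under the minimum, so no ratio is given. Their medians were 3274.5, 3120 and 2088 UMIs per cell. After thinning to 2000 UMIs the shares with Cxcr4 were 43.2% (32.7 to 54.2), 20% (8.44 to 36.9) and 11.1% (0.281 to 48.3).

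Neutrophils were 73.9% of the cells in control, 65.9% in scratch-negative and 24.55% in scratch-positive. They held 66.7%, 50.2% and 29.95% of all Cxcr4 UMIs in these libraries. Their Cxcr4 was at 85.2 CPM (4568 cells), 55.9 CPM (5002 cells) and 55.6 CPM (2069 cells). Control was highest and the tumour-bearing libraries were alike in this sum. The ratio to control was 0.656 (0.628 to 0.685) for scratch-negative and 0.653 (0.611 to 0.697) for scratch-positive, and that of scratch-positive to scratch-negative was 0.996 (0.931 to 1.07). Both ratios to control lay just past 1.5-fold, and neither reached it as a mean over cells, at 0.769 and 0.799, or without cells holding transcripts of another class, at 0.792 and 0.681. Thinned to 2000 UMIs, 20.01% (18.9 to 21.2), 14.4% (13.4 to 15.4) and 12.8% (11.4 to 14.4) of neutrophils had a UMI, against 47.5%, 38.3% and 29.5% without thinning. The median neutrophil had 8681, 9765 and 7345 UMIs.

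The stages of neutrophil development were then taken one by one. Cycling precursors were at 46.3, 30.04 and 19.8 CPM of Cxcr4, immature neutrophils at 44.2, 24.9 and 20.4 CPM, and mature neutrophils at 194.6, 125.2 and 82.6 CPM. In these 3 stages the level was highest in control and lowest in scratch-positive. The ratio of scratch-positive to control was 0.429 (0.342 to 0.533), 0.463 (0.397 to 0.537) and 0.425 (0.371 to 0.484) in turn, each further from 1 than the sum. Tumour-site neutrophils, marked by Ccl3, Ccl4 and Cxcl2, were 3, 409 and 455 cells, and in the last 2 libraries had Cxcr4 at 231.1 and 266.5 CPM (ratio 1.15, 1.03 to 1.29, not called). Without that stage the ratio of scratch-positive to control was 0.358 and that of scratch-positive to scratch-negative 0.631, an alternative chosen after the stages had been seen. The tumour-bearing libraries were thus close in the sum over all stages and apart without the tumour-site stage.

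Within the mature stage Cxcr4 differed between clusters. Cluster 0, led by H2-Q10 and the chemokine gene Ccl6, had the highest level of any cluster of the lineage with 50 cells in every library, at 561.8 CPM (531.7 to 593.2), 488.3 CPM (457.4 to 520.6) and 372.1 CPM (308.2 to 445.2). Cluster 1, led by the interferon-induced gene Rsad2, was at 235.5, 89.85 and 82.6 CPM in 60, 61 and 4 cells. Cluster 3, led by Stfa2l1, was at 209.9, 117.6 and 75.2 CPM. Cluster 2, led by Prok2 and with Mmp8 and Cxcr2 among its leading genes, was at 199.2, 57.3 and 57.9 CPM. Clusters 7 and 9, led by Mmp8, the gene of a granule collagenase, were at 56.2, 40.4 and 23.2 CPM and at 103.7, 56.9 and 54.4 CPM. Across the 14 clusters of the lineage with 60 cells or more in both libraries, control was above scratch-negative each time. Cluster 8, an immature cluster led by Fpr1, had only 46 cells in scratch-positive, where its level of 40.01 CPM (24.4 to 61.8) was above the 25.2 CPM of scratch-negative.

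**Figure D4:**
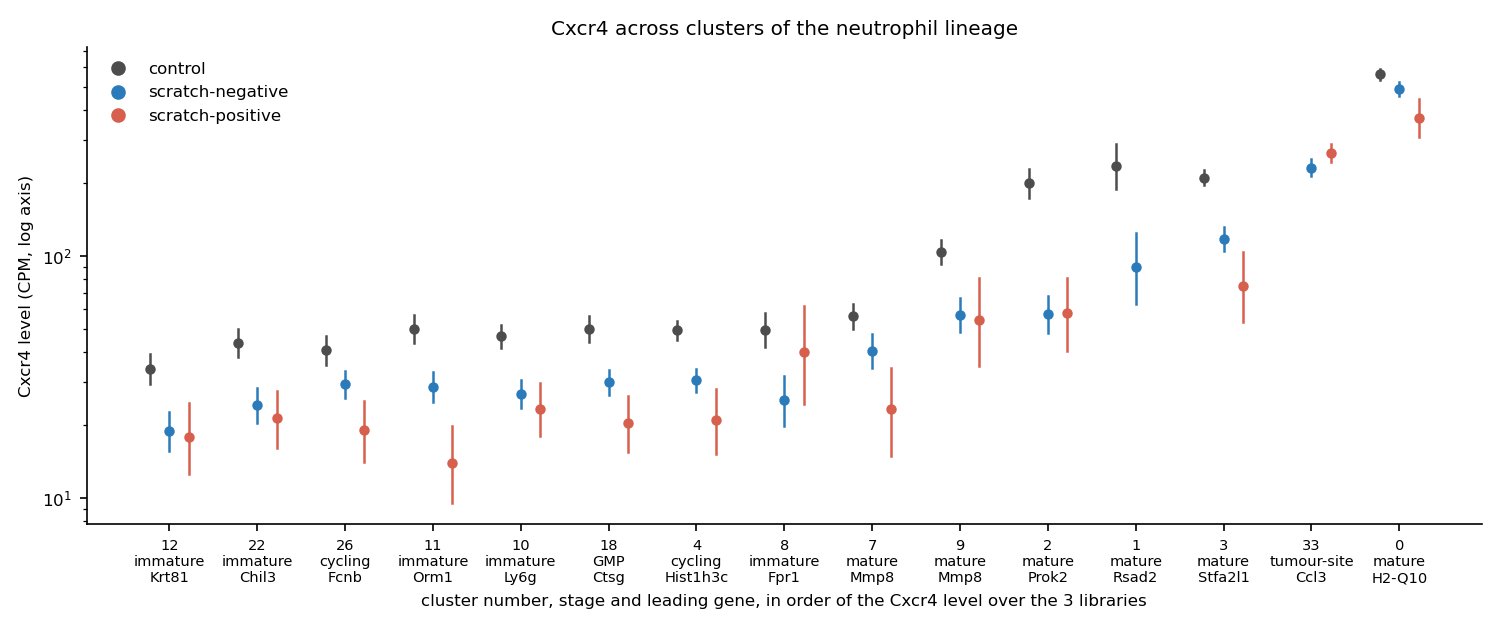
Cxcr4 level (CPM, log axis) in each cluster of the neutrophil lineage, granulocyte-monocyte progenitors included, with 1 point per library and exact Poisson 95% intervals. Clusters are in order of their level over the 3 libraries. Libraries with under 20 cells of a cluster are not drawn, so cluster 33, with 3 control cells, has no control point. The control point is the highest in each of the other clusters, and cluster 0 reaches 561.8 CPM.

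Of the 5 genes in neutrophils, 4 could be compared between scratch-negative and control. Cxcr4 and Kit were called lower, and Cxcl12 and Ackr3 higher, where 12.4% of 12626 genes were called. Between scratch-positive and control 5 could be compared. Cxcr4 and Kit were again called lower and Ackr3 and Kitl higher, where 28.1% of 12221 genes were called. Between the tumour-bearing libraries Kitl was called higher and Cxcl12 lower in scratch-positive, where 14.8% of 12448 genes were called. The calls of Cxcl12, Kitl and Ackr3 concern very low levels. Cxcl12 was at 1.01, 1.92 and 0.551 CPM and Kitl at 0.0534, 0.0767 and 1.15 CPM in neutrophils. Col1a1, a collagen gene of stroma, was at 16.1, 83.6 and 33.2 CPM and Krt8, a keratin gene of the carcinoma, at 0.0178, 1.49 and 29.95 CPM in the same cells. Cxcl12 was thus highest where Col1a1 was, and Kitl where Krt8 was. Whether neutrophils made these transcripts was not tested.

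Genes that act with CXCR4 were read in neutrophils from a list of 18. Between scratch-negative and control 17 could be compared, 2 were higher and 4 lower, beside 12.4% of all genes called in either direction. The median log2 ratio of the list was -0.20 against -0.08 for all genes. Rgs2, a regulator that shortens G protein signalling, was at 119.3, 71.0 and 60.3 CPM in the 3 libraries. Arrb1, an arrestin that ends receptor signalling, was at 21.7, 14.0 and 12.2 CPM, and Rgs1 at 7.03, 4.36 and 3.11 CPM. Grk3, a receptor kinase, was at 2.72, 1.75 and 1.10 CPM. The higher pair was Mif, a cytokine that can also bind CXCR4, at 15.5, 35.8 and 71.1 CPM, and Cd74, its receptor, at 5.73, 11.8 and 32.5 CPM. Between scratch-positive and control 16 could be compared, the same 2 were higher, and 5 were lower, Pik3cg being added to the 4. Of all genes 28.1% were called there. The median log2 ratio of the list was -0.16 against 0.05.

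Other genes that hold neutrophils in marrow or release them were read from a second list of 18, of which 17 could be compared. In scratch-negative against control 4 were higher and 3 lower, beside 12.4% of all genes called in either direction. The 4 encode chemokines and a growth factor known to draw neutrophils out of marrow. Cxcl2 was at 141.6, 1673 and 4738 CPM, Cxcl1 at 0.125, 12.2 and 34.4 CPM, Cxcl5 at 0.0178, 1.10 and 1.90 CPM, and Csf3, which encodes the growth factor G-CSF, at 1.28, 3.68 and 7.01 CPM. Cxcl2 was among the markers that named tumour-site neutrophils. Cxcl1 and Cxcl2 were also called higher in B-lineage, NK, progenitor, monocyte and erythroid cells of the same pair. Krt8, the keratin gene of the carcinoma, had the same order in neutrophils, at 0.0178, 1.49 and 29.95 CPM. Whether neutrophils made these transcripts was not tested. The 3 lower genes were the adhesion genes Vcam1, at 10.1 and 5.83 CPM in control and scratch-negative, and Itga4, at 18.8 and 12.4 CPM, and S1pr1, a receptor that guides cells into blood, at 2.54 and 0.644 CPM. Cxcr2, the receptor that opposes CXCR4 on neutrophils, was at 143.8 and 164.9 CPM and was not called. The median log2 ratio of the list was -0.01 against -0.08 for all genes.

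Granulocyte-monocyte progenitors, the cells that give rise to neutrophils and monocytes, had both receptors. Cxcr4 was at 49.9, 29.9 and 20.4 CPM in 123, 206 and 74 cells. Its ratio to control was 0.600 (0.507 to 0.710) in scratch-negative and 0.409 (0.303 to 0.545) in scratch-positive. Kit was at 43.1, 28.3 and 9.50 CPM, with ratios of 0.657 (0.550 to 0.784) and 0.220 (0.142 to 0.329). The scratch-negative ratio was 0.732 for Cxcr4 without cells holding transcripts of another class and 0.694 for Kit without doublet removal, both short of 1.5-fold. The 3 intervals of each gene did not overlap. Between scratch-positive and scratch-negative the ratio of Kit was 0.336 (0.217 to 0.499), and that of Cxcr4 0.682 (0.505 to 0.906), which fell short of 1.5-fold. Of 3 genes compared, 2 were called lower in scratch-negative than in control, where 6.93% of 10565 genes were called. Both of the 2 compared were lower in scratch-positive than in control (19.0% of 9990 genes called), and 1 of 3 between the tumour-bearing libraries (11.2% of 10425 genes called).

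The share of progenitors with a UMI of Kit was 71.5%, 56.8% and 23.0%. Thinned to 2000 UMIs it was 10.2% (5.37 to 17.1), 6.57% (3.54 to 10.97) and 1.35% (0.0342 to 7.30), and the last of these rests on 1 of 74 cells. Neutrophils, set beside them for comparison, had 1.55%, 1.08% and 0.679%, and their class includes cycling precursors, at 3.56%, 1.75% and 0.461%, so it is no measure of free RNA. Fibroblasts had 0, 2 and 0 cells with a UMI of Kit among 48, 547 and 418 thinned cells. Median depths were 43928, 47239 and 33925.5 UMIs in progenitors.

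Within the neutrophil lineage Kit was lower at later stages. In control it was at 43.1 CPM in progenitors, 17.8 CPM in cycling precursors, 10.7 CPM in immature and 6.09 CPM in mature neutrophils. The same order held in scratch-negative, at 28.3, 9.85, 5.65 and 4.56 CPM. In scratch-positive the values were 9.50, 5.33, 5.47 and 3.77 CPM, where cycling and immature cells were in the opposite order by less than counting error. Cycling precursors had ratios of 0.555 (0.458 to 0.670) for scratch-negative and 0.300 (0.191 to 0.453) for scratch-positive against control.

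Genes that carry the signal of KIT were read in progenitors from a list of 15. Between scratch-negative and control 14 could be compared, 1 was higher and none was lower, beside 6.93% of all genes called, with a median log2 ratio of -0.09 against -0.02. The higher gene was Spred1, an inhibitor of the Ras pathway, at 1.64 and 4.15 CPM. Between scratch-positive and control 13 could be compared, of which Spred1 was higher, at 4.57 CPM, and Pik3r1, a subunit of PI3 kinase, was lower, at 29.2 and 14.4 CPM, beside 19.0% of all genes called. In the same cells 5 of 16 genes of the CXCR4 list were lower in scratch-positive, namely Arrb1, Rgs2, Ptk2b, Pik3cg and Vav1, and none was higher, beside the same 19.0%. Their list had a median log2 ratio of 0.11 against -0.05 for all genes, a median of the opposite sign to these calls.

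Erythroid cells had the most Kit UMIs in control, 42.7% of the library. Their level was 63.3 CPM in control (309 cells), 40.6 CPM in scratch-negative (232 cells) and 8.71 CPM in the 18 cells of scratch-positive. The ratio of scratch-negative to control was 0.641 (0.570 to 0.721). Kit was 1 of 4 genes compared and was called lower, and Ackr3 was called higher on 1 and 19 UMIs, where 8.88% of 11408 genes were called. In the same cells Col1a1 was at 6.74 and 135.8 CPM and Krt8 at 0 and 22.4 CPM, and their part in the Ackr3 call was not tested. The ratio of Kit was 0.718 as a mean over cells, and 0.362 without cells holding transcripts of another class. The Kit of this class came from cluster 14, led by Car1 and with Klf1 and Gata1 among its leading genes, which had 80.0 and 53.1 CPM in control and scratch-negative. Cluster 28, led by haemoglobin genes of later stages, had 5.54 and 1.80 CPM. Cluster 14 was 232 of 309 erythroid cells in control and 148 of 232 in scratch-negative, so both the level within the cluster and its share of the class were higher in control.

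Dendritic cells had Kit at 84.3, 46.8 and 59.0 CPM in 6, 43 and 147 cells, and in scratch-positive they held 31.2% of all Kit UMIs. The numbers of cells did not allow a ratio. In the last 2 libraries UMIs of Kit were in 39.5% and 45.6% of them, or 14.0% (5.30 to 27.9) and 12.5% (7.58 to 19.0) after thinning, above neutrophils. Reticular cells, the main source of the ligand, had 0 UMIs of Kit in all 3 libraries.

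Myeloid classes outside the neutrophil lineage also had Cxcr4. Monocytes were at 170.0, 165.2 and 92.2 CPM. Scratch-negative was not called against control for any of 2 genes (8.74% of 9391 genes called), while scratch-positive had a ratio of 0.543 (0.402 to 0.720) to control (17.5% of 9129 genes called), or 0.718 without cells holding transcripts of another class, and of 0.558 (0.408 to 0.752) to scratch-negative (10.7% of 8260 genes called). Macrophages were at 208.0 CPM in 24 control cells, 120.1 CPM in scratch-negative and 68.9 CPM in scratch-positive, with a ratio of the last pair of 0.573 (0.528 to 0.623). In that pair 3 of 5 genes were lower, Cxcr4, Ackr3 and Cxcl12, where 39.7% of 12342 genes were called. The ratio of Ackr3, from 17 and 18 UMIs, was 3.98 without doublet removal, and S100a8 was at 128700 and 45270 CPM in these cells, whose part was not tested. Osteoclasts, the cells that resorb bone, were at 89.7 CPM (28 cells), 70.1 CPM (84 cells) and 14.96 CPM (871 cells), a ratio of the last pair of 0.214 (0.184 to 0.249). There Cxcr4 and Cxcl12 were called lower and Kitl higher in scratch-positive, where 19.0% of 12628 genes were called. The ratio of Kitl, from 4 and 119 UMIs, was 0.837 as a mean over cells. In these osteoclasts S100a8 was at 21750 and 1860 CPM, the antibody gene Igkc at 3171 and 0.927 CPM, and Krt8 at 1.29 and 26.1 CPM, and their part in the calls was not tested.

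**Figure D5:**
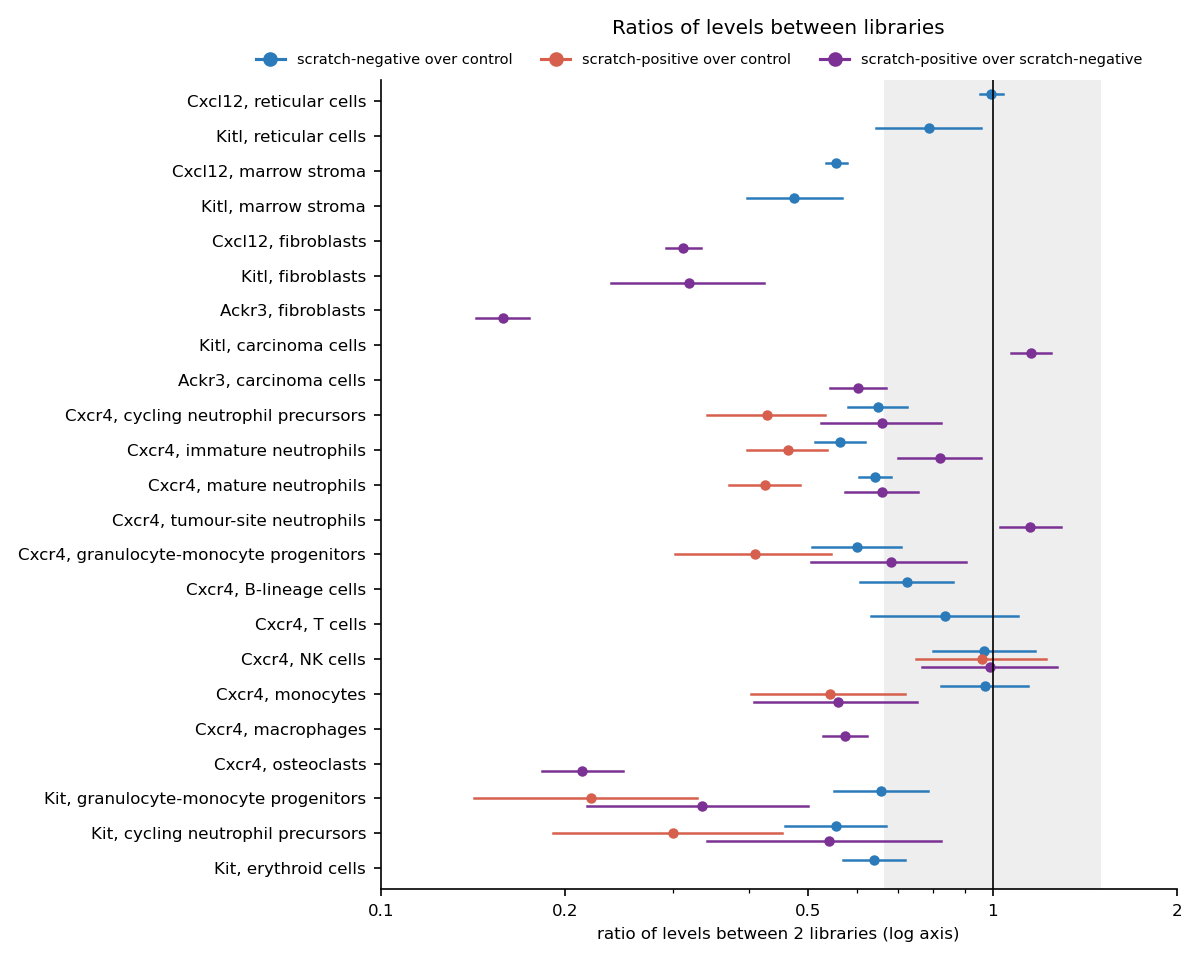
Ratios of levels between 2 libraries (log axis) for selected genes and classes with exact conditional binomial 95% intervals, coloured by the pair of libraries. The grey band marks less than 1.5-fold. Cxcl12 in reticular cells and Cxcr4 in NK cells lie at 1, while Kit in progenitors and Ackr3 in fibroblasts lie below the band.

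For each gene the 3 genes with the most similar pattern were sought by Pearson's r of log2(CPM + 1) over 39 profiles of a class in a library, among 11787 genes. Profiles of 1 library share its depth and its free RNA, and parts of a class share cells with it. Cxcl12 was closest to Pcsk6 (0.953), Fap (0.952) and Scara3 (0.951), which like it were highest in marrow stroma of control. Kitl was closest to Cp (0.959), Tspan12 (0.941) and Plxnb1 (0.934), also highest there. Cxcr4 was closest to Inpp5d (0.958), Selplg (0.954) and Cd84 (0.938), 3 genes of blood cells. Ackr3 was closest to Tbx15 (0.938), Osmr (0.928) and Pard3 (0.926). Kit had no close partner, its highest values being 0.740 for Ankrd13a, 0.717 for Susd1 and 0.696 for Myb. By Spearman's rho the 3 closest genes were others for Cxcl12, Ackr3 and Kitl, 2 of the 3 remained for Cxcr4 and all 3 for Kit.

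Among the 5 genes themselves the ligands and the scavenging receptor went together over these profiles of whole classes, which does not place them in the same cells. Within marrow stroma, reticular cells had 0, 0 and 1 UMIs of Ackr3. Osteoblasts, where the Ackr3 of the stroma was found, had 0, 2 and 1 UMIs of Cxcl12. Cxcl12 had r of 0.777 with Ackr3 and 0.750 with Kitl, and Kitl had 0.658 with Ackr3. The signalling receptors ran the other way, with r of -0.478 between Cxcl12 and Cxcr4 and -0.521 between Kitl and Kit. Cxcr4 and Kit had 0.323.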

How the data were processed

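The authors deposited UMI counts per gene and barcode for 3 libraries made with 10x 3' chemistry. Per the file headers the counter was Cell Ranger 6.1.2, and the genome was mm10 per the submitters' processing notes. Members and gene lists were chosen with earlier results of these data known. The genes named in the text are the 5 members, the listed genes that were called in a pair of libraries or have the highest levels, and the 3 genes most like each member. The cluster leaders, and the genes given as signs of other cells, were named as well.

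Barcodes with at least 500 genes and at most 10% mitochondrial UMIs were kept, and those with the highest Scrublet scores were removed at 0.8% per 1000 barcodes (449, 580 and 723). Scrublet's own threshold marked 5, 4 and 661 barcodes and was used only as an alternative. Counts were scaled to 10000 per cell, and 30 principal components of the variable genes without the 5 members were clustered by the Leiden method at resolution 2.0 with 15 neighbours. A cluster was named where at least 3 markers of a list were found in 20% of its cells at 1.5 times the other cells. Some names were withheld by rules set after the clusters were seen, such as on the share of cells with Ptprc. The parts of the stroma come from sub-clustering at resolution 0.5, and their minimum of 20 cells was set after the cell numbers were known.

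UMIs were summed per class and library, since cells are not replicates. With 1 library per group no p-value was computed. A pair of libraries was compared where each held at least 50 cells of the class. Intervals and limits, at 95% and from 3 counts where a count was 0, cover counting error only. Median log2 ratios of lists were taken with a mean of 0.5 UMI added to the counts of the 2 libraries, in proportion to their class totals. Shares of cells were taken after thinning each cell to 2000 UMIs, leaving out shallower cells, with 1000 as an alternative. The calculation of ratios and calls was tested on simulated data. Other filters, doublet removal, clustering, denominators and averages were tried as alternatives. The tools were scanpy 1.11.5 and igraph 0.11.9 for clustering, scipy 1.17.1 for intervals, and scikit-learn 1.9.0, pandas 2.3.3 and numpy 2.4.6, under Python 3.11.15.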

Additional observations from a re-analysis of the deposited data

Results flagged for a closer look

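The same gene was called in opposite directions in different classes of the same pair of libraries for each of the 5 genes. The difference between classes was not tested, because each group is 1 library. Between scratch-negative and control, Cxcl12 had a ratio of 0.556 in marrow stroma and 1.89 in neutrophils. In reticular cells alone its ratio was 0.996. In neutrophils it was at only 1.01 CPM in control and 1.92 CPM in scratch-negative, and whether they made it was not tested. Cxcr4 had a ratio of 0.656 in neutrophils and 0.600 in granulocyte-monocyte progenitors, and 3.67 in marrow stroma on 3 and 17 UMIs. Of these 17 UMIs, 15 lay in stroma cells that also held neutrophil transcripts, and the direction reversed without those cells. Ackr3 had a ratio of 0.417 in marrow stroma, which rested on 3 control and 2 scratch-negative osteoblasts, too few cells to compare libraries. Its ratio was 19.99 in erythroid cells on 1 and 19 UMIs. In neutrophils it was at least 8.91-fold higher, where control had 0 UMIs and the bound is set against 3 UMIs in the library.

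Between scratch-positive and scratch-negative, Kitl had a ratio of 0.319 in fibroblasts, 3.56 in osteoclasts and 15.02 in neutrophils. The fibroblast call was lost without doublet removal. The osteoclast ratio rested on 4 UMIs in scratch-negative and 119 in scratch-positive, and its direction reversed as a mean over cells. The neutrophil ratio rested on 5 and 23 UMIs, and whether neutrophils made this transcript was not tested. Kit had a ratio of 0.336 in granulocyte-monocyte progenitors and 0.0499 in carcinoma cells, and 4.08 in NK cells on 4 and 8 UMIs. In fibroblasts Kit went from 15 UMIs to 0, a ratio of at most 0.278 against 3 UMIs.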

How the results depend on the processing

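No paired analysis was possible because each group is 1 library and no test was made, and for the same reason no replicate could be left out. Over 11 ratios for 5 genes and 119 alternatives, 85 values moved by less than the counting interval and 34 by more, and the cause of the moves was not tested. Cxcl12 in marrow stroma (0.556) was 0.479 at a minimum of 200 genes, 0.502 both without doublet removal and with Scrublet's own threshold, 0.530 with each library clustered alone, 0.809 as a mean over cells, 0.613 without cells holding transcripts of another class, 0.659 without the sub-cluster rich in neutrophil transcripts and 0.996 in reticular cells alone. Kitl there (0.474) was 0.671 as a mean over cells and 0.787 in reticular cells. Cxcr4 in neutrophils, scratch-negative over control (0.656), was 0.603 at 1000 genes, 0.505 with libraries clustered alone, 0.769 as a mean over cells, 0.792 without cells holding other transcripts and 0.567 without the tumour-site stage. Scratch-positive over control (0.653) was 0.538 at 1000 genes, 0.799 as a mean, 0.592 with abundant genes out of the denominator, 0.431 with stages weighted equally and 0.358 without the tumour-site stage. Scratch-positive over scratch-negative (0.996) was 0.891 at 1000 genes, 1.33 with libraries clustered alone, 0.899 with abundant genes out, 0.860 without cells holding other transcripts and 0.631 without the tumour-site stage. Cxcr4 in B-lineage cells (0.724) was 0.578 with libraries clustered alone and 0.525 without cells holding other transcripts. Kit in progenitors, scratch-negative over control (0.657), was 0.461 as a mean and 0.441 without cells holding other transcripts. Ackr3 in fibroblasts (0.158) was 0.130 at 1000 genes, 0.133 without doublet removal, 0.130 with members among the variable genes, 0.226 as a mean and 0.577 in the cluster led by Clec3b. Of 491 alternatives for 50 other ratios, 453 stayed on the same side of 1 and 438 moved by less than the counting interval. Of the 285 alternatives to called ratios, 282 stayed on the same side and 3 changed it. These were Cxcr4 in marrow stroma at 0.827 without the neutrophil-rich sub-cluster, Ackr3 in macrophages at 3.98 without doublet removal and Kitl in osteoclasts at 0.837 as a mean over cells. Alternatives with no UMI in a library, or under 20 cells, gave no value. The alternatives on reticular cells, the neutrophil-rich sub-cluster, the tumour-site stage and the Clec3b cluster were chosen after seeing the data. The number of cells limits the scratch-positive stroma, with 15, and depth limits counts of a few UMIs.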
